A study of Homo sapiens with 3 samples.

Results

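WNT ligands, their cell-surface receptors and the R-spondins that act with them were examined as a group of 41 genes: 19 *WNT* ligands, 10 *FZD* (Frizzled) receptors, the co-receptors *LRP5* and *LRP6*, the receptors *RYK*, *ROR1* and *ROR2*, 3 *LGR* receptors and 4 *RSPO* genes. Members were listed by gene symbol and not by a cut on their measured values, but earlier results of these data were known. All 41 had a row among the 23131 rows of the deposited expression table. The RNA came from HCT-116, a human colon carcinoma line with wild-type *APC* and a *CTNNB1* allele that lacks Ser45. Cells were treated on consecutive days with pooled anti-*APC* siRNA, with pooled scrambled siRNA or with reagent and no siRNA, and were harvested 48 hours after the second treatment. The control without siRNA is called untransfected in one label and mock in another, and is called untransfected here. There was 1 library per treatment from 1 cell line, so no difference below has a replicate check and no p-value is given. Cells given scrambled siRNA are not analysed here, so the effect of lowering *APC* and that of introducing any siRNA cannot be told apart.

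WNT proteins are secreted, lipid-modified ligands that bind a Frizzled receptor, and with LRP5 or LRP6 as co-receptor this binding stops the APC, AXIN and GSK3 complex from marking β-catenin for degradation. RYK, ROR1 and ROR2 are single-pass receptors best known for responses that do not run through β-catenin. R-spondins bind LGR receptors and keep the ligases RNF43 and ZNRF3 from removing Frizzled proteins from the membrane, a control that matters for stem cells at the base of the colon crypt. APC and the Ser45 site of β-catenin both lie downstream of these surface proteins.

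Levels are given in FPKM, reads of a gene divided by its transcript length and by the depth of the library, which can be compared between genes because length is divided out. The labels were checked on *APC*, which was 3.43 FPKM in the anti-*APC* library and 9.15 FPKM in the untransfected library, a ratio of 0.375. *AXIN2*, a negative regulator and common target of β-catenin, was 28.7 against 4.11 FPKM. The table holds no counts, so depth was estimated from the FPKM of rows taken to hold a single read. It was about 25200000 reads for the anti-*APC* library and 27600000 for the untransfected one. Of 10 colon epithelial markers, 6 were expressed at a mean of at least 1 FPKM (*EPCAM*, *CDH1*, *KRT8*, *KRT18*, *KRT19* and *CDX2*), whereas *VIL1*, *CDX1* and *LGALS4* were near 0 and *KRT20* was 0.718 against 0.475 FPKM. The 6 expressed markers were all lower in the anti-*APC* library, as were 58.6% of all expressed rows. Their median log2 ratio was -0.35, the summed level of all 10 was 1295 against 1650 FPKM, and their part in the results below was not tested. None of 4 endothelial markers was expressed, and 1 of 7 fibroblast markers (*COL1A1*, 3.08 against 2.85 FPKM) and 1 of 6 leukocyte markers (*CD68*, 5.01 against 8.91 FPKM) passed 1 FPKM. The leukocyte-defining *PTPRC* was at most 0.0148 FPKM, and the part of *CD68* in the results was not tested. In RNA from whole cultures, fewer cells with a transcript and less of it in each cell cannot be told apart.

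A gene was called expressed where its mean over both libraries was at least 1 FPKM, which held for 19 of the 41 members. Each ratio below is anti-*APC* over untransfected on the log2 scale, without a pseudocount. Its 95% interval was computed from reads rebuilt from FPKM, transcript length and depth, and covers counting error only. Of the 19, 16 were lower in the anti-*APC* library (84.2%, against 58.6% of all expressed rows) and 3 were higher. At least 1.5-fold lower were 5 members, *WNT7B*, *WNT9A*, *WNT3A*, *ROR1* and *LRP5*, against 6.61% of all 12063 expressed rows. None was at least 1.5-fold higher, against 2.56% of all expressed rows. *WNT7B*, *WNT3A* and *ROR1* were below 1 FPKM in the anti-*APC* library and passed the minimum through the untransfected library. A minimum in each library was not applied to members or to all rows. The members' median log2 ratio was -0.27, beside -0.05 for all expressed rows.

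The background depended on level. Among the 2862 expressed rows with a mean below 5 FPKM, 15.7% were at least 1.5-fold lower and 4.3% at least 1.5-fold higher, with a median log2 ratio of -0.17. The group has 12 members in that range, of which 4 were at least 1.5-fold lower and none higher, with a median of -0.31. Being lower at all was common among these rows (68.4%) and was seen in 11 of the 12 members.

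**Figure D1:**
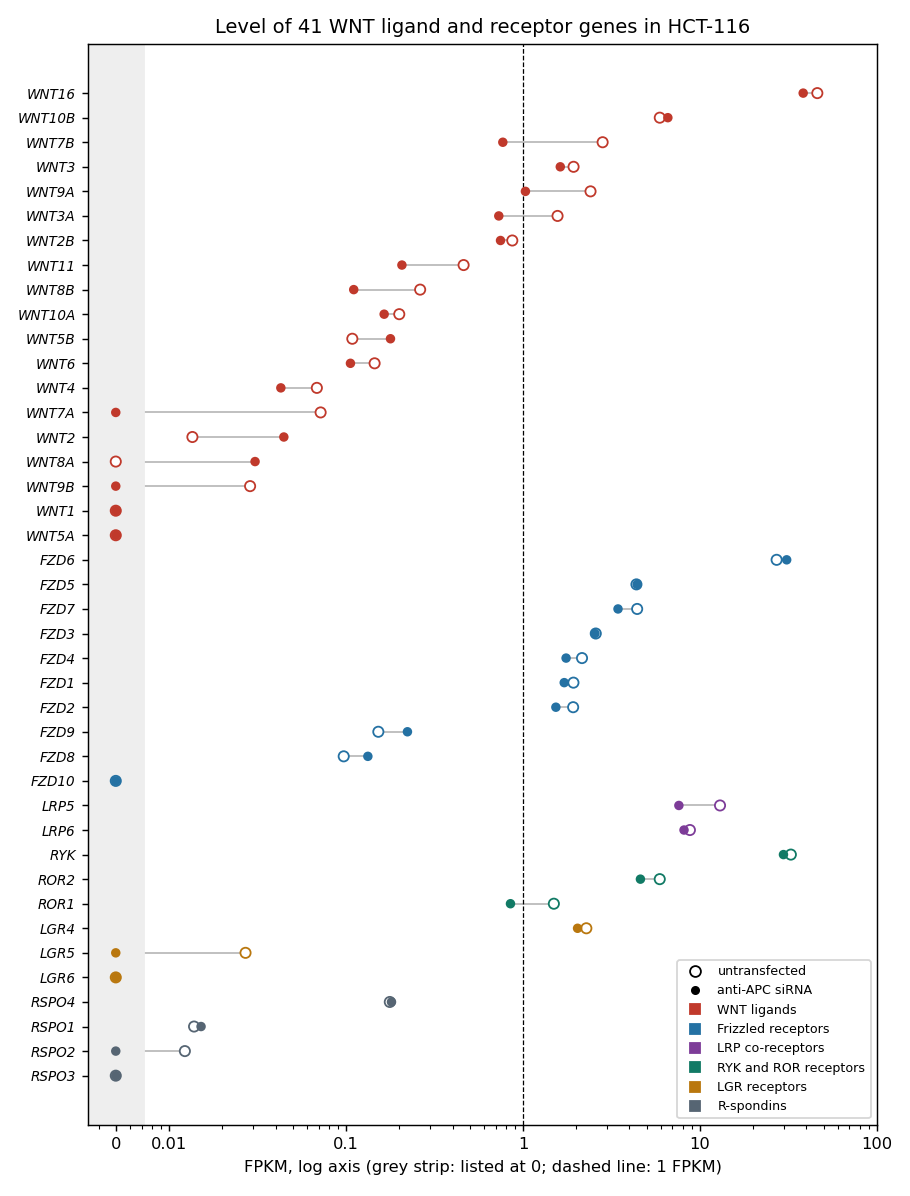
Level of the 41 genes in FPKM (log axis), open circles for the untransfected and filled circles for the anti-APC siRNA library, 1 library each, coloured by class. WNT16, FZD6 and RYK lie at 27.1 FPKM or above in both libraries, and all other members lie below 10 except LRP5 in untransfected cells. Genes in the grey strip are listed at 0.

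The ligands were dominated by *WNT16*, which was 38.3 FPKM in the anti-*APC* and 46.1 FPKM in the untransfected library, 73.2% of the summed ligand FPKM of the latter. Its log2 ratio was -0.27 (95% interval -0.34 to -0.19, from 2585 and 3404 reads). WNT16 is studied mostly in bone and joint tissue. *WNT10B*, a ligand that activates β-catenin signalling, came next with 6.59 against 5.93 FPKM and a log2 ratio of 0.15, whose interval of -0.06 to 0.37 includes 0. It was the one expressed ligand with a higher value in the anti-*APC* library.

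The other 4 expressed ligands were each below 3 FPKM. *WNT7B*, which acts in lung and vessel development, had the lowest ratio of all members, with 0.770 FPKM in the anti-*APC* and 2.82 FPKM in the untransfected library. Its log2 ratio of -1.87 (-2.27 to -1.497) rests on 72 and 289 reads and is a 3.66-fold lower level. Thus the gene went from the third highest ligand in the untransfected library to below 1 FPKM. It lies at chr22:46316248-46373008 (hg19, minus strand). Its annotated exons overlap those of a second transcript on the same strand, *CR536603.1*, so that reads of these genes could be shared.

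*WNT9A*, known from joint and skeletal development, was 1.03 against 2.41 FPKM, a log2 ratio of -1.22 (-1.92 to -0.56) from 27 and 69 reads. *WNT3A*, the ligand most often used to activate β-catenin signalling in culture, was 0.730 against 1.57 FPKM, a log2 ratio of -1.10 (-1.61 to -0.62) from 51 and 120 reads. The intervals of *WNT9A* and *WNT3A* overlap widely, and each overlaps that of *WNT7B* in part. Overlap does not show that ratios are equal, and the order of these ligands was not tested. *WNT3*, a crypt ligand made by Paneth cells, was 1.63 against 1.93 FPKM with a log2 ratio of -0.25. Its interval of -0.79 to 0.29 from 53 and 69 reads spans both no difference and a 1.5-fold lower level.

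*WNT9A* and *WNT3A* are neighbours on chromosome 1. In the deposited coordinates (hg19, written from base 1) *WNT9A* lies on the minus strand at chr1:228109165-228135676 and *WNT3A* on the plus strand at chr1:228194723-228248972, 59.0 kb apart. Their start sites face each other across this gap. Within 250 kb of the pair the table holds 13 other genes, of which 7 were expressed, with ratios between 0.335 and 1.19. The 1 neighbour at least 1.5-fold lower was *LOC100130093*, named after its values were seen, which shares its locus in the table with *SNAP47* and *JMJD4*. *SNAP47* and *JMJD4* themselves had ratios of 1.13 and 1.19. The gene next to *WNT3A*, *ARF1*, is listed at 0 with a failed status and gives no value.

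Other ligand pairs also lie side by side. *WNT1* and *WNT10B* are 6.59 kb apart on chromosome 12, and *WNT1* was listed at 0 in both libraries while *WNT10B* was the second highest ligand. *WNT3* and *WNT9B* are 32.9 kb apart on chromosome 17, and only *WNT3* was expressed. *WNT6* and *WNT10A*, 6.30 kb apart on chromosome 2, were both below 1 FPKM.

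The promoters shown are those of members at least 1.5-fold lower, and the table used here has an entry for 4 of the 5 (*LRP5*, *ROR1*, *WNT3A* and *WNT9A*). They were picked by this cut and not by direction alone, since 16 of the 19 expressed members were lower. Each sequence is the 250 bases before the annotated start, from RefSeq on GRCh38.p14, a later build than that of the expression table, with positions on that build. Capitals mark the SP1 core GGGCGG, read on both strands.
WNT9A (chr1:227947933-227948182, - strand): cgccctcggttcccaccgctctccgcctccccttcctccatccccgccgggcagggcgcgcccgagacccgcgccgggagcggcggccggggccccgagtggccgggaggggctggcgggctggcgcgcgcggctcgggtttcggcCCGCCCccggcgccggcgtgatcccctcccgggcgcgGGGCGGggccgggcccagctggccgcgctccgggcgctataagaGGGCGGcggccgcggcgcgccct
WNT3A (chr1:228006748-228006997, + strand): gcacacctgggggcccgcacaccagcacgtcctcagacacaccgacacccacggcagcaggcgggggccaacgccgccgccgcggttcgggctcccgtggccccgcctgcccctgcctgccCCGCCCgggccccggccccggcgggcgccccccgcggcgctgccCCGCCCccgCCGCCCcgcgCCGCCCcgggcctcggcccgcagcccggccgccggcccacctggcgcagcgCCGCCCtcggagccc
ROR1 (chr1:63773767-63774016, + strand): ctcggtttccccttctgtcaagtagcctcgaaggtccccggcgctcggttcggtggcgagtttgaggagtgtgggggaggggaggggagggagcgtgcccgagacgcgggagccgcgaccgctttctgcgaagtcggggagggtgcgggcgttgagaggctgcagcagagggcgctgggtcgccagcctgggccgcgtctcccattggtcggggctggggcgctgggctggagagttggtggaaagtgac
LRP5 (chr11:68312341-68312590, + strand): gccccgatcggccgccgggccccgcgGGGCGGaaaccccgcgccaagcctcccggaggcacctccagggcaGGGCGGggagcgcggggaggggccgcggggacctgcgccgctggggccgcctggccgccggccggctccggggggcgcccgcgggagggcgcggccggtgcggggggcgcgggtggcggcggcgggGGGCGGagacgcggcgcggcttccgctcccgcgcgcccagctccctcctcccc

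The word GGGCGG occurs 3 times in the *WNT9A* window, 5 times in that of *WNT3A*, 3 times in that of *LRP5* and not in that of *ROR1*. It was present in 22 of the 30 members with an entry (73.3%) and in 42.6% of all 35116 promoters of the same length. The highest numbers were in unexpressed members, 11 in the *WNT9B* window and 9 in that of *WNT4*. Shares of all promoters, here and for the words below, are not matched for G+C content. The *ROR1* window has a G+C content of 69.2%, against 84.4% for *WNT9A*, 86.0% for *WNT3A* and 87.2% for *LRP5*. The TCF7L2 word NNCAAAG with A or T at each N, recognised by a DNA-binding partner of β-catenin, was in none of the 30 windows and in 12% of all promoters. The AP-1 word TGANTCA with C or G at N was likewise in none of the 30, against 4.2% of all. The USF word CACGTG was in 1 of the 30 (*RSPO4*), against 6.34% of all. Both strands were searched for each word. These matches describe letters in 250 bases and not binding.

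The remaining 13 ligands were below 1 FPKM. *WNT2B* came closest to the limit, with 0.747 against 0.871 FPKM. *WNT11*, a ligand of cell movement in the early embryo, was 0.207 against 0.462 FPKM from 9 and 22 reads, and *WNT8B* was 0.111 against 0.262 FPKM from 5 and 13 reads. The counting intervals of all 3 include a ratio of 1. *WNT1* and *WNT5A* were listed at 0 in both libraries, *WNT7A* and *WNT9B* at 0 in the anti-*APC* library and *WNT8A* at 0 in the untransfected one. Thus WNT5A, the ligand most often paired with ROR receptors, was not detected although *ROR2* was expressed. Summed over 19 genes, ligand FPKM was 50.7 in the anti-*APC* and 63.0 in the untransfected library, a ratio of 0.805. Without *WNT16* the sums were 12.4 and 16.9.

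**Figure D2:**
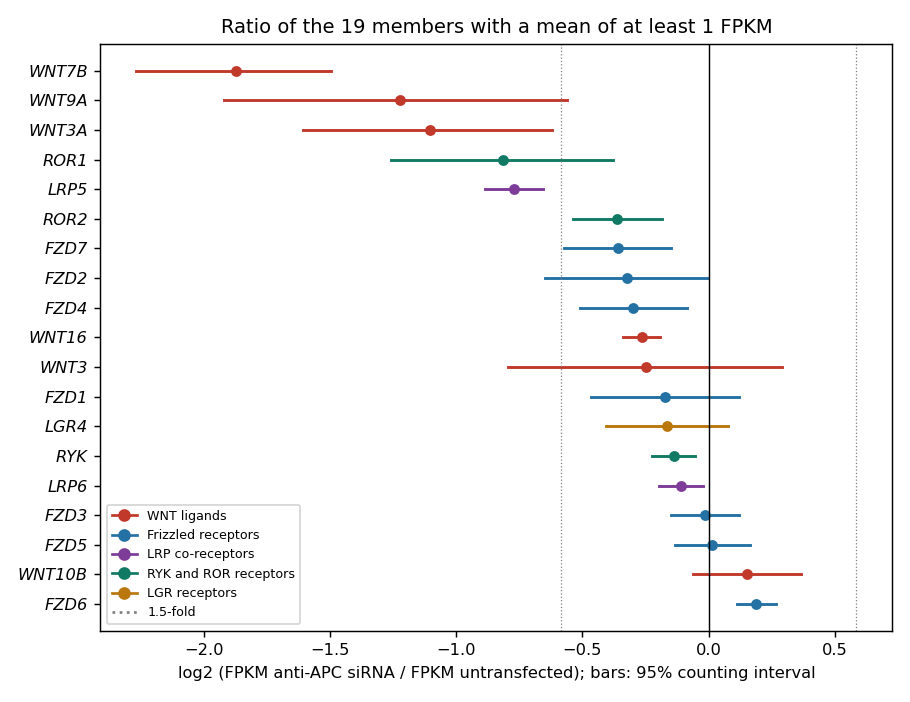
Log2 ratio of anti-APC siRNA over untransfected for the 19 expressed members, points for the ratio and bars for the 95% counting interval, which does not include variation between cultures. The dotted lines mark 1.5-fold in each direction. WNT7B, WNT9A, WNT3A, ROR1 and LRP5 lie beyond the left line, and FZD6 is the one member whose interval lies above 0.

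The Frizzled receptors bind WNT ligands through a cysteine-rich domain outside the cell. *FZD6*, a receptor of planar polarity in skin, was highest with 30.9 FPKM in the anti-*APC* and 27.1 FPKM in the untransfected library. Its log2 ratio of 0.19 (0.11 to 0.27, from 2781 and 2673 reads) made it the one expressed member with a counting interval above 0. *FZD6* alone made up 60.6% of the Frizzled FPKM in the untransfected library.

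The other 6 expressed Frizzled genes lay between 1.54 and 4.42 FPKM. *FZD5*, a receptor of the intestinal crypt, was 4.42 against 4.38 FPKM, and *FZD3*, which guides axons, was 2.55 against 2.58 FPKM. Their log2 ratios of 0.01 and -0.02 had intervals of -0.14 to 0.16 and -0.15 to 0.12, and a 1.5-fold difference lies outside both. *FZD7*, another receptor of intestinal stem cells, was 3.45 against 4.42 FPKM, a log2 ratio of -0.36 (-0.57 to -0.15). *FZD4*, the receptor of norrin in retinal vessels, was 1.75 against 2.16 FPKM, a log2 ratio of -0.30 (-0.51 to -0.08). Both intervals lie below 0 and neither reaches 1.5-fold.

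*FZD2* was 1.54 against 1.92 FPKM, a log2 ratio of -0.32 (-0.65 to -0.0025), whose interval lies just below 0 and reaches past 1.5-fold. *FZD1* was 1.71 against 1.93 FPKM, a log2 ratio of -0.17 (-0.47 to 0.12). The members *FZD8* and *FZD9* reached at most 0.222 FPKM and *FZD10* was listed at 0 in both. The sum over all 10 Frizzled genes was 46.7 in the anti-*APC* and 44.8 FPKM in the untransfected library, so the summed level was 1.04-fold that of the control. Without *FZD6* the sums were 15.8 and 17.6 FPKM. *FZD3* shares its locus with a microRNA gene in the table, and exons of *FZD4* and *FZD6* overlap a gene on the opposite strand. The library kit named in the labels does not mark strand, so reads of such overlaps cannot be assigned by strand.

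The co-receptors differed from each other. *LRP5*, at chr11:68080108-68216743 (hg19), was 7.61 FPKM in the anti-*APC* and 13.0 FPKM in the untransfected library, a log2 ratio of -0.77 (-0.89 to -0.66) from 945 and 1768 reads. *LRP6*, its close homologue, was 8.13 against 8.78 FPKM, a log2 ratio of -0.11 (-0.20 to -0.02) from 2027 and 2397 reads. The intervals do not overlap. The transcripts differ in G+C content, 62.7% for *LRP5* and 40.4% for *LRP6*, and ratios moved with G+C content across all rows, as given below. The order of the pair also changed, with *LRP5* above *LRP6* in the untransfected library and slightly below it in the anti-*APC* library. *LRP5* was the 1 member past 1.5-fold with a mean above 5 FPKM.

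Of the receptors linked to β-catenin-independent responses, *RYK* was highest, with 29.7 against 32.7 FPKM and a log2 ratio of -0.14 (-0.22 to -0.05). *ROR2* was 4.61 against 5.93 FPKM, a log2 ratio of -0.36 (-0.54 to -0.19). *ROR1*, at chr1:64239690-64644707 (hg19), was 0.850 against 1.495 FPKM, a log2 ratio of -0.81 (-1.26 to -0.38) from 68 and 131 reads. All 3 intervals lie below 0, and those of *ROR1* and *ROR2* overlap.

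Of the R-spondin receptors only *LGR4* was expressed, with 2.04 against 2.28 FPKM and a log2 ratio of -0.16 (-0.41 to 0.08). *LGR5*, the marker of crypt stem cells, had 0 and 2 reads, and *LGR6* was listed at 0 in both libraries. No R-spondin was expressed. *RSPO4*, which is needed for nail growth, was 0.181 against 0.177 FPKM, *RSPO1* had 1 read in each library, *RSPO2* had 1 read in the untransfected library and *RSPO3* was listed at 0 in both.

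For the 5 members listed at 0 in both libraries (*WNT1*, *WNT5A*, *FZD10*, *LGR6* and *RSPO3*), none has a failed status. A count of 0 allows up to 3 reads, and for these 5 genes 3 reads corresponded to between 0.0193 and 0.135 FPKM. Another 5 were at 0 in 1 library only and had 1 to 3 reads in the other. The last 12 unexpressed members were above 0 in both libraries, 6 lower and 6 higher, and the counting interval of each includes a ratio of 1. Differences of these 22 genes were not detectable at this depth.

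**Figure D3:**
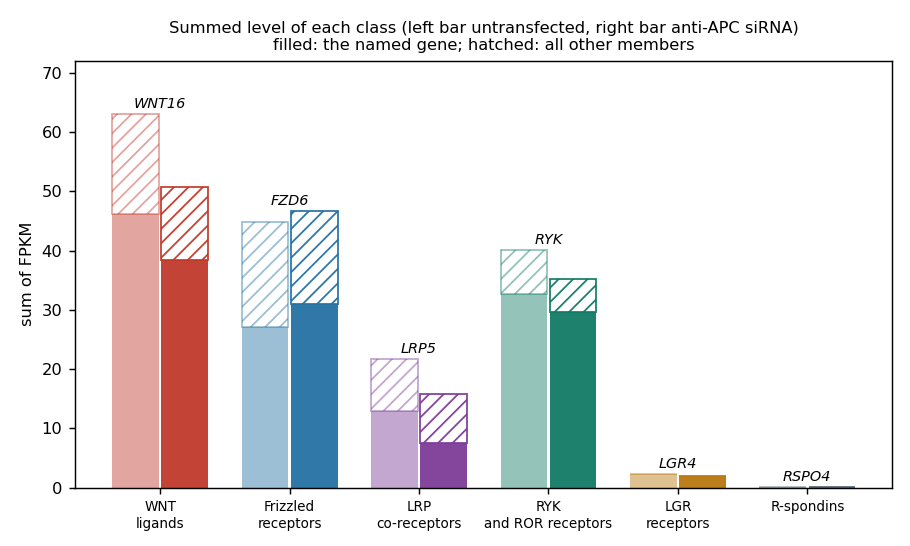
Summed FPKM of each class, left bar for the untransfected and right bar for the anti-APC siRNA library, 1 library each and no error bars. The filled part is the named highest gene and the hatched part all other members. WNT16, FZD6 and RYK make up most of their classes, and the LGR and R-spondin bars are near 0 (2.31 and 0.203 FPKM in the untransfected library).

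The ratio moved with the base composition of transcripts across the whole table. The G+C content of the annotated transcript was known for 84.1% of expressed rows, and the share at least 1.5-fold lower was 2.31% between 40 and 45% G+C, 14.0% between 60 and 65%, and 17.8% above 65%. The members past 1.5-fold were mostly rich in G+C: *WNT9A* has 67.1%, *WNT3A* 66.7%, *WNT7B* 63.0%, *LRP5* 62.7% and *ROR1* 51.8%. Of the 5 expressed members above 60% G+C, 4 were at least 1.5-fold lower, with *WNT3* (60.9%) as the exception. Of the 14 at or below 60%, 1 (*ROR1*) was. Among all expressed rows the share at least 1.5-fold lower was 14.9% of 1643 above 60% G+C. At or below 60% it was 4.46% of 8498. At the other end, *FZD6* has 37.3%, where the median ratio of all rows was above 0.

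Rows both rich in G+C and low give the closest background for *WNT7B*, *WNT9A*, *WNT3A* and *WNT3*. Of 517 expressed rows below 5 FPKM and above 60% G+C, 28.6% were at least 1.5-fold lower and 2.51% at least 1.5-fold higher. In that range 3 of 4 members (*WNT7B*, *WNT9A* and *WNT3A*, not *WNT3*) were lower by that size. In the bin of *LRP5*, at least 5 FPKM and 60 to 65% G+C, 8.16% of rows were at least 1.5-fold lower. In the bin of *ROR1*, below 5 FPKM and 50 to 55% G+C, it was 12.5%. When the median ratio of rows in the same bin of G+C content and level was subtracted, a comparison chosen after the data were seen, the log2 ratio was -1.57 for *WNT7B*, -0.84 for *WNT9A*, -0.72 for *WNT3A*, -0.65 for *ROR1* and -0.59 for *LRP5*. All 5 were still past 1.5-fold (0.58 on this scale), *LRP5* narrowly. The signs of *WNT3* and *FZD1* turned, to 0.06 and 0.12, and 14 of the 19 members were then lower. This subtraction makes about as many rows lower as higher in each bin, so the shares of all rows above do not apply. The share of all rows past 1.5-fold after it is not given. The value of *FZD6* became 0.12 and that of *LRP6* became -0.15.

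**Figure D4:**
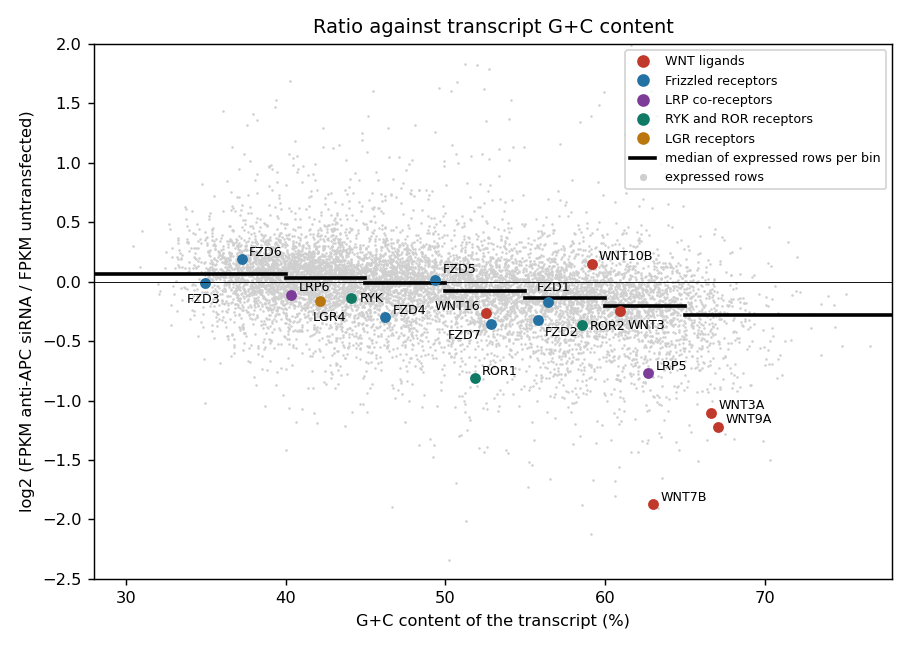
Log2 ratio of anti-APC siRNA over untransfected against the G+C content of the transcript in percent, grey points for expressed rows, black lines for their median in each bin and coloured points for the 19 expressed members. The bin median goes from 0.07 up to 40% G+C to -0.28 above 65%, and WNT7B, WNT9A, WNT3A, LRP5 and ROR1 lie below the line of their bin. A few grey points lie outside the plotted range.

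Other genes of the pathway were read from lists chosen with earlier results of these data known. Of 18 genes that act in WNT secretion or in control at the cell surface, 12 were expressed, with a median log2 ratio of 0.00. At least 1.5-fold lower was 1 (6.61% of all expressed rows) and higher were 2 (2.56%). *WLS*, the carrier that brings WNT proteins to the cell surface, was 53.0 against 31.1 FPKM, a 1.70-fold higher level. *PORCN*, which adds the lipid to WNT proteins, was 2.32 against 3.51 FPKM, 1.51-fold lower. *ZNRF3*, the ligase that removes Frizzled receptors and is itself a β-catenin target, was 6.84 against 3.89 FPKM. Its partner *RNF43* is listed at 0 with a failed status and gives no value.

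Of 12 secreted inhibitors only *DKK1*, which blocks LRP5 and LRP6, was expressed, with 206.9 against 197.5 FPKM. Thus the RNA of this inhibitor was more abundant than that of any ligand or receptor of the group. Of 11 dishevelled and planar polarity genes 8 were expressed. All 8 were lower (58.6% of all expressed rows), none by 1.5-fold, with a median log2 ratio of -0.22. Of 18 β-catenin targets 13 were expressed, with a median of 0.35. At least 1.5-fold higher were 5 (2.56% of all expressed rows) and lower were 3 (6.61%). Among expressed rows below 5 FPKM these shares were 4.3% and 15.7%. The largest differences were in *AXIN2* (28.7 against 4.11 FPKM), *SP5* (2.14 against 0.394 FPKM) and *BAMBI* (17.7 against 4.95 FPKM), all higher, and in *EPHB2*, a receptor that sorts cells along the crypt, which was 2.57-fold lower with 1.59 against 4.10 FPKM.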

How the data were processed

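Single-read TruSeq RNA libraries of HCT-116 cells were assigned to transcripts with Cufflinks and compared with Cuffdiff by the authors, on hg19 according to the submitters' processing notes. Versions, aligner and annotation are not given in the sources used here. The deposited values used here are FPKM per gene, in 1 column for untransfected cells and 1 for cells given anti-*APC* siRNA. The table's own log ratio, test statistic, p-value, q-value and significance call compare these libraries and were not used. The library with scrambled siRNA is not analysed here.

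Members were matched by gene symbol. Members and gene lists were chosen with earlier results of these data known. Every expressed member (mean FPKM of 1 or more) was named, as were list genes past 1.5-fold (at most 4 per list, largest first), members at 0 in both libraries and checks of the labels. Ratios used rows above 0 in both libraries, and 134 rows with a mean of at least 1 FPKM but 0 in 1 library gave none.

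Depth came from 309 rows that share 1 FPKM ratio (1.095), taken as that of 1 read in each library. Equal higher counts give the same ratio. Of single-exon rows with this ratio, 9 gave the depth and a length offset of 204 bases. Of 68 single-exon rows below 10 reads, 49 (72.1%) came within 0.1 of whole reads in both libraries, as did 25 of the 36 members above 0. Transcript lengths, G+C content and overlaps came from GENCODE 44 on GRCh37. Reads were rounded, and 95% Clopper-Pearson intervals of the ratio were computed. They cover counting error only. Table starts count from 0, since start plus 1 was an annotated start for 41.2% of 14383 rows against 5.44% for the start itself. The procedure was tested on simulated data. Python 3.11.15, numpy 2.4.6, pandas 2.3.3, scipy 1.17.1 and matplotlib 3.10.9 were used.

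Alternatives were other FPKM minimums, pseudocounts and fold sizes, centring on the median of expressed rows and members alone at their locus. Centring and backgrounds by G+C content or by level were added after the data were seen. Promoters matched for 30 of 41 members.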

Additional observations from a re-analysis of the deposited data

How the results depend on the processing

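With 1 library per treatment no replicate could be left out, and no alternative addresses variation between cultures. No paired analysis was possible because each group had a single library. A minimum of 5 FPKM kept 7 expressed members, of which 1 (*LRP5*) was at least 1.5-fold lower. With no minimum, 8 members were lower and 2 higher by 1.5-fold. The further 5 (*WNT4*, *WNT8B* and *WNT11* lower, *WNT2* and *WNT5B* higher) had at most 22 reads in either library. A pseudocount of 1 FPKM left 3 lower (*WNT7B*, *WNT9A* and *LRP5*), with log2 ratios of -1.11 for *WNT7B* and -0.57 for *WNT3A*. A smaller threshold of 0.32 on the log2 scale gave 8 lower members and a fold of 2 gave 3 (*WNT7B*, *WNT9A* and *WNT3A*). Centring on the median of expressed rows left 0 lower genes in the secretion and surface list, since *PORCN* passed 1.5-fold narrowly. The number higher by 1.5-fold went from 2 to 3 in that list and from 5 to 6 among β-catenin targets. Subtracting the median of rows of like G+C content and level, added after the data were seen, moved *LRP5* to -0.59 and the members' median to -0.18, with 5 members lower and 0 higher by 1.5-fold. Shares of all expressed rows are not given for these alternatives, so their counts have no background beside them. Depth limits the 22 members below 1 FPKM, for which no difference could be resolved.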
